A study of Mus musculus with 6 samples.

Results

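The 44 genes described here encode proteins that copy DNA, drive the cell division cycle, segregate the chromosomes or hold the cycle back. They were chosen by name and function, with earlier results of these data known. All 44 were found by NCBI gene number among the 21117 genes of the table. By role they comprise 8 licensing and helicase genes, 4 genes of the replication fork and of nucleotide supply, 6 G1 genes (the D and E cyclins and Cdk2), 4 genes of the S to M phases (Ccna2, Ccnb1, Ccnb2 and Cdk1), 18 mitosis genes and 4 inhibitors. Their levels were read in bulk poly(A) RNA of the aorta at an age of 32 weeks, in 3 wild-type (WT) samples and 3 samples of the genotype Fbn1C1041G/+, all labelled untreated. The mutant allele is a missense allele of Fbn1, which encodes fibrillin-1, a protein of elastic fibres. It is carried on 1 of 2 gene copies, and such mice are used as a model of Marfan syndrome, an inherited disease in which the aorta dilates. Strain, sex and aortic segment are not labelled. Nor is it labelled whether each sample is its own animal, and the p-values therefore reflect only how far these samples spread, which may be technical. The design asks which genes differ between the genotypes.

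A cell that is about to divide loads the MCM helicase onto replication origins, a step called licensing that needs Cdc6 and Cdt1. Cyclins of the D and E families, with their kinases, release E2F transcription factors, which switch on replication genes. Later the A and B cyclins with Cdk1 and the mitotic genes carry the cell through division. Mitotic transcripts are made mostly from S phase to mitosis and mark dividing cells, whereas some replication and nucleotide genes are also used in repair. In the adult aorta most smooth muscle cells and fibroblasts are at rest, and division is seen in few cells, leukocytes among them.

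Levels are FPKM, fragments scaled to transcript length and to the depth of the library. Depth, estimated from the spacing of low values, was 13900000 to 16710000 fragments for WT and 14380000 to 16870000 for Fbn1C1041G/+ libraries, so the lowest values here rest on few fragments. One library, WT replicate 3, was separated by principal component 2, where it scored -45.80 and the others -5.10 to 23.13, and its deviations correlated with GC content at -0.31, against -0.14 to 0.24 in the rest. The smooth muscle markers Acta2 and Myh11 stood at 4674 to 6357 FPKM and 593.7 to 946.6 FPKM over the 6 libraries. Markers of other tissues differed between the groups. The summed level of 8 sympathoadrenal markers, Th and Dbh among them, was 1125 to 1333 FPKM in the WT and 113.5 to 224.7 FPKM in mutant samples, and that of 8 heart muscle markers, Myh6 and Tnni3 among them, was 45.9 to 66.7 and 155.1 to 430.4 FPKM. In bulk tissue fewer cells of a type and less RNA per cell cannot be told apart.

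Mitotic transcripts were low in WT aorta and stood higher in Fbn1C1041G/+ replicates 1 and 3, while those in Fbn1C1041G/+ replicate 2 lay close to WT. The summed level of the 22 genes of the S to M and mitosis classes was 15.9, 20.4 and 16.8 FPKM in WT replicates 1 to 3 and 71.4, 21.6 and 34.6 FPKM in Fbn1C1041G/+ replicates 1 to 3. The 12 licensing, fork and nucleotide genes differed far less, with sums of 96.8, 90.9 and 91.0 FPKM in the WT and 122.8, 104.8 and 111.9 FPKM in mutant samples. All 3 mutant sums lay above all WT sums for both sets. Without Pcna the replication sums were 53.21, 47.44 and 52.01 FPKM in the WT and 71.51, 53.85 and 55.4 FPKM in mutant samples. The groups then stayed apart only by a narrow margin, 53.21 against 53.85 FPKM. With all members the ratio of the group means was 2.40 for the first set and 1.22 for the second. Without Fbn1C1041G/+ replicate 1 these ratios were 1.59 and 1.17, and without WT replicate 3 they were 2.34 and 1.21. For the 4 S to M genes alone the ratio was 3.11, and 1.84 without Fbn1C1041G/+ replicate 1. The sum of the mitotic set was 16.5%, 22.4% and 18.4% of that of the replication set in WT replicates 1 to 3, and 58.2%, 20.6% and 31.0% in Fbn1C1041G/+ replicates 1 to 3. This share lay within the WT range in Fbn1C1041G/+ replicate 2 and above it in the other two. The sums are descriptions of chosen genes and were not tested.

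**Figure D1:**
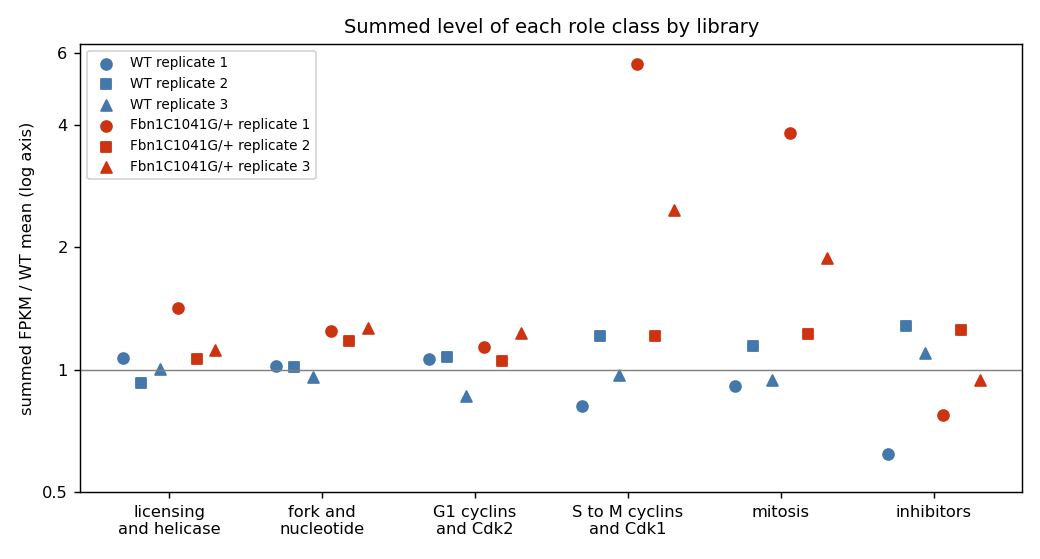
Summed FPKM of the members of each role class in each library, divided by the mean of the 3 WT libraries, on a log axis; blue symbols are WT and red symbols Fbn1C1041G/+, with a shape for each replicate number. The S to M class reached 5.65 times and the mitosis class 3.81 times the WT mean in Fbn1C1041G/+ replicate 1, while both lay at 1.21 and 1.22 times in Fbn1C1041G/+ replicate 2, and the inhibitors spread over the same range in both groups.

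No single member passed the test. limma on log2(FPKM + 1) was run over the 13438 genes averaging 1 FPKM or more, of which 5.6% were called, 0.744% higher and 4.85% lower in Fbn1C1041G/+ samples at a Benjamini-Hochberg adjusted p under 0.05. Of the 44 members 32 passed that filter and 0 were called in either direction (adjusted p 0.188 to 0.991). At an unadjusted p under 0.05 there were 6, all higher in the mutant (Ccnb2, Cdc20, Prc1, Ube2c, Pcna and Ccnd2), where 4.86% of all tested genes were higher and 10.3% lower at that level. The other 12 members, with a mean under 1 FPKM, were Cdc6, Ccnb1, Cdk1, Mki67, Top2a, Bub1, Bub1b, Aurkb, Kif11, Kif23, Cenpf and Nusap1. Ccnb2, Kif20a, Plk1 and Tpx2 had WT means of 0.50, 0.79, 0.96 and 0.99 FPKM and passed the filter only through their mutant values. With the filter lowered to a mean of 0.1 FPKM all 44 were tested and again 0 were called, where 0.695% of 16970 genes were called higher and 4.34% lower. In that fit 13 members had an unadjusted p under 0.05, all of them higher in the mutant, where the shares of all genes were 5.38% higher and 10.2% lower, and the lowest adjusted p was that of Mki67, 0.152. The 3 mutant values lay wholly above the 3 WT values for 14 of the 44 members, where 7.56% of all genes did so, and wholly below for 0, where 13.1% of all genes did so. Among the 14 were 10 of the 22 genes of the S to M and mitosis classes, 3 of the 12 replication genes (Mcm5, Mcm6 and Pcna) and Ccnd2. An exact permutation test of 3 against 3 samples, 2-sided, cannot give a p below 0.1.

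**Figure D2:**
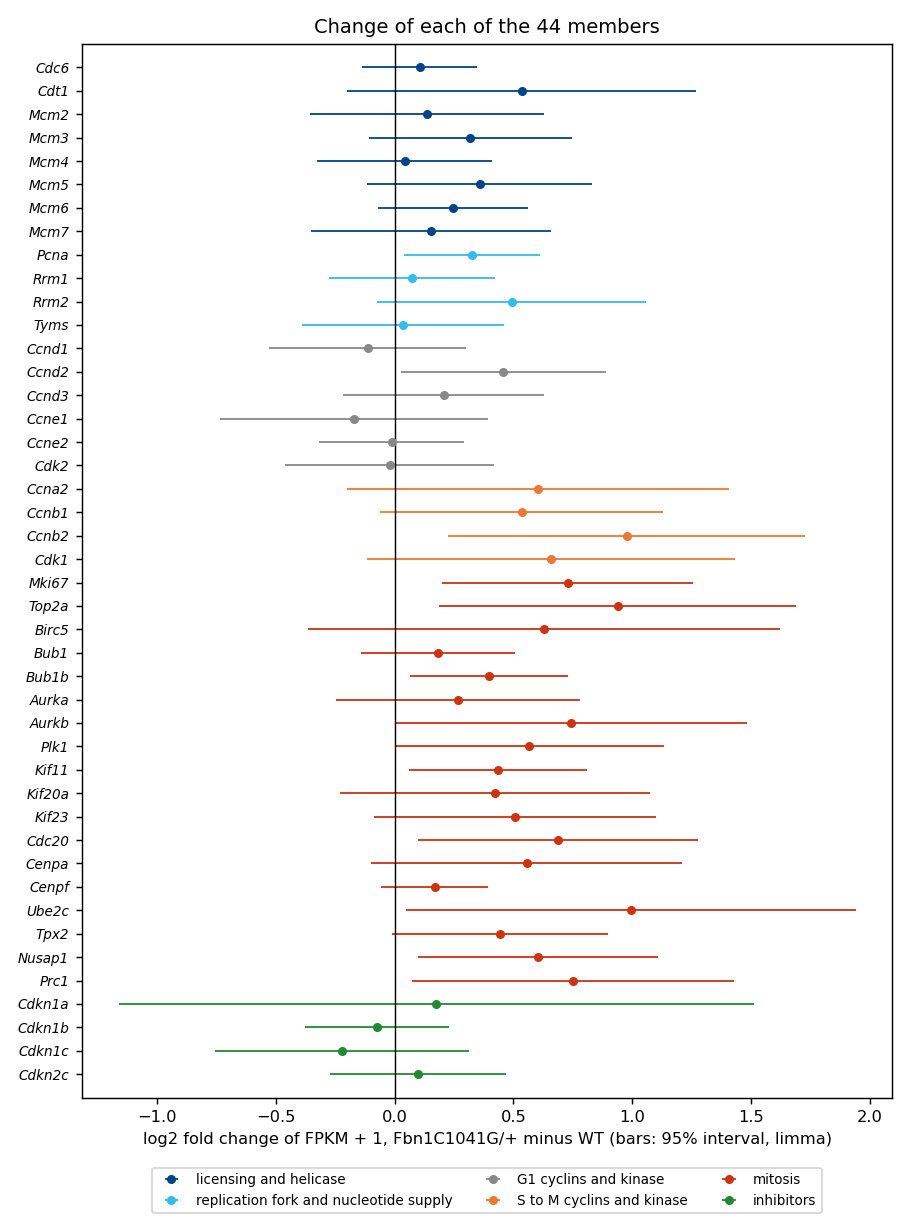
Log2 fold change of FPKM + 1, Fbn1C1041G/+ minus WT, for each of the 44 members on the horizontal axis, with bars for the 95% interval from limma over genes averaging 0.1 FPKM or more; colours mark the role classes. All 22 S to M and mitosis genes and all 12 replication genes lie to the right of 0, the former between 0.17 and 0.99 and the latter between 0.04 and 0.54, and G1 genes and inhibitors lie on both sides. Bub1 passed the filter of 0.1 FPKM only through its mutant values.

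On the log2(FPKM + 1) scale, which understates the change of low genes, all 22 S to M and mitosis genes had a positive log2 fold change at the filter of 0.1 FPKM, with a median of 0.59. All 12 replication genes were positive too, with a median of 0.20. Over all genes the median was -0.0038 and 49.2% were positive. Bub1, with a WT mean of 0.083 FPKM, passed that filter only through its mutant values, which fixes its sign. The members were read in the same 6 libraries, so their signs are not separate observations. The ratio of mean FPKM had a median of 2.38 over the mitotic set, 1.23 over the replication set and 0.991 over all genes. Of the replication genes, Mcm4, Mcm7, Rrm1 and Tyms changed sign when single libraries were left out.

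Among the cyclins of the S to M phases, Ccnb2 (NCBI gene 12442), cyclin B2, an activator of Cdk1, stood at 0.47, 0.65 and 0.37 FPKM in the WT and 3.97, 1.06 and 1.48 FPKM in mutant samples. The groups did not overlap, and the log2 fold change was 0.98 ± 0.33 (SE; adjusted p by limma = 0.188), the lowest adjusted p among the 32 members. Its WT mean of 0.50 FPKM lay under the filter of 1 FPKM, which it passed only through the mutant values. Ccnb1 (NCBI gene 268697), cyclin B1, stood at 0.05, 0.33 and 0.42 FPKM in the WT and 1.58, 0.32 and 0.77 FPKM in mutant samples. Fbn1C1041G/+ replicate 2 lay within the WT range, and the WT values rested on an estimated 2, 14 and 15 fragments. Ccna2, cyclin A2, which acts in S phase and at the entry to mitosis, stood at 0.91, 1.14 and 1.12 FPKM in the WT and 4.19, 0.90 and 2.09 FPKM in mutant samples. Cdk1, the kinase that starts mitosis, stood at 0.34, 0.51 and 0.19 FPKM in the WT and 2.51, 0.35 and 1 FPKM in mutant samples. Fbn1C1041G/+ replicate 2 lay just below the WT values of Ccna2 and within those of Cdk1, and the groups overlapped for both genes.

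**Figure D3:**
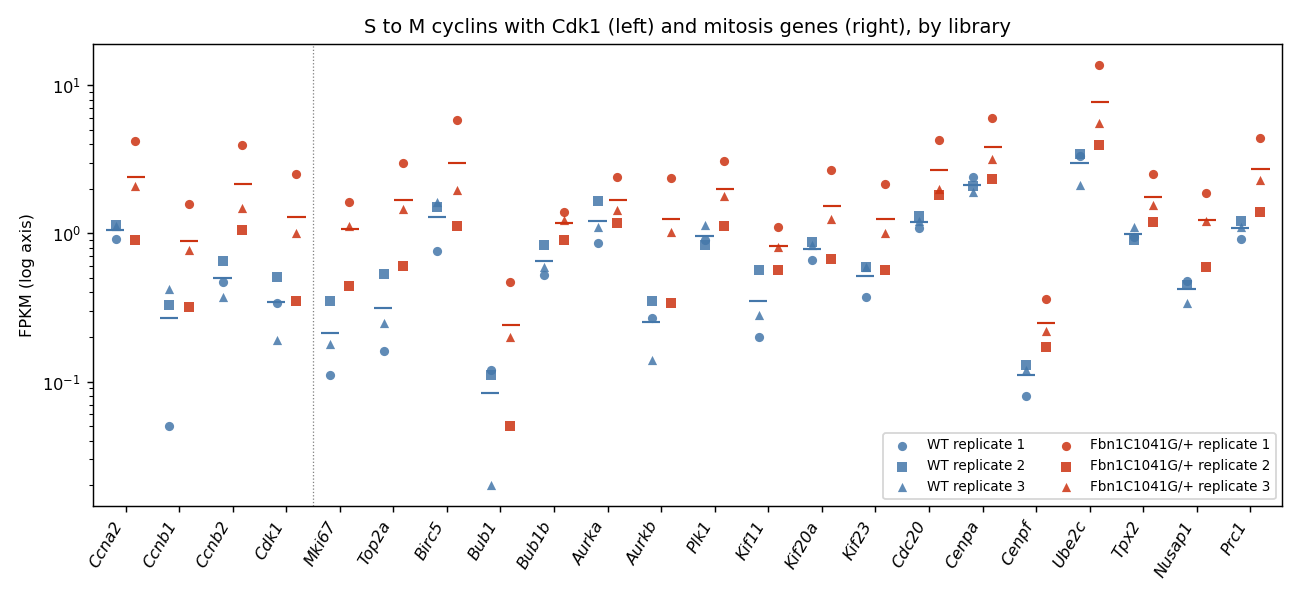
FPKM of the 4 S to M genes and the 18 mitosis genes in each library on a log axis; blue symbols are WT, red symbols Fbn1C1041G/+, shapes mark the replicate number and short lines the group means. Fbn1C1041G/+ replicate 1 is the highest of the 6 libraries for all 22 genes, and Fbn1C1041G/+ replicate 2 lies lowest of the mutant samples for all 22.

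Top2a, Mki67 and Aurkb had the largest ratios of means, 5.35, 4.98 and 4.92. Mki67 (NCBI gene 17345), which encodes the Ki-67 antigen of dividing cells, stood at 0.11, 0.35 and 0.18 FPKM in the WT and 1.62, 0.44 and 1.13 FPKM in mutant samples. The groups did not overlap, and with the lower filter the log2 fold change was 0.73 ± 0.22 (SE; adjusted p by limma = 0.152). The fragments behind these values were an estimated 18, 59 and 25 in WT and 275, 64 and 180 in mutant samples, so that the highest WT library and the lowest mutant library differed by few. Top2a (NCBI gene 21973), the topoisomerase that untangles sister chromatids, stood at 0.16, 0.53 and 0.25 FPKM in the WT and 2.97, 0.60 and 1.46 FPKM in mutant samples. Again Fbn1C1041G/+ replicate 2 lay just above the highest WT value. With the lower filter and Fbn1C1041G/+ replicate 2 left out, an alternative chosen after the data were seen, Mki67 (log2 fold change 0.97; limma adjusted p = 0.0284) and Nusap1 (0.82; limma adjusted p = 0.0459) passed the threshold, where 1.44% of genes were called higher. Without Fbn1C1041G/+ replicate 1 or 3, 0 members passed, and Mki67 had a limma adjusted p of 0.268 and 0.401.

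Genes of the spindle checkpoint and of its target, the anaphase-promoting complex, followed the same library order. Ube2c (NCBI gene 68612), the ubiquitin-conjugating enzyme of that complex, was the most abundant mitosis gene, at 3.32, 3.45 and 2.12 FPKM in the WT and 13.69, 3.92 and 5.55 FPKM in mutant samples. This was a log2 fold change of 0.99 ± 0.39 (SE; adjusted p by limma = 0.282). Cdc20, the activator of the complex, stood at 1.08, 1.31 and 1.21 FPKM in the WT and 4.27, 1.82 and 1.99 FPKM in mutant samples, for a fold change on the log2 scale of 0.69 ± 0.26 (SE; adjusted p by limma = 0.244). For both genes all mutant values lay above all WT values. Bub1b, the checkpoint protein BubR1, stood at 0.52, 0.84 and 0.59 FPKM in the WT and 1.40, 0.90 and 1.23 FPKM in mutant samples, without overlap. Bub1, a checkpoint kinase, was at the edge of detection, at 0.02 to 0.12 FPKM in the WT and 0.47, 0.05 and 0.20 FPKM in mutant samples, and its groups overlapped.

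Mitotic kinases and their partners overlapped between the groups, apart from Tpx2. Aurkb, the kinase of the chromosomal passenger complex, stood at 0.27, 0.35 and 0.14 FPKM in the WT and 2.38, 0.34 and 1.02 FPKM in mutant samples. Birc5, survivin, a subunit of the same complex, stood at 0.76, 1.5 and 1.64 FPKM in the WT and 5.81, 1.13 and 1.97 FPKM in mutant samples, with Fbn1C1041G/+ replicate 2 below 2 of the WT libraries. Plk1, Polo-like kinase 1, stood at 0.90, 0.84 and 1.14 FPKM in the WT and 3.08, 1.13 and 1.80 FPKM in mutant samples (log2 fold change 0.57 ± 0.25, SE; adjusted p by limma = 0.354). Aurka, the centrosomal Aurora kinase, had the smallest ratio of means of the mitotic set, 1.39, and its activator Tpx2 one of 1.78 with no overlap between the groups.

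Motors and bundlers of the spindle midzone gave a like picture. Prc1, which crosslinks midzone microtubules, stood at 0.92, 1.22 and 1.11 FPKM in the WT and 4.40, 1.40 and 2.30 FPKM in mutant samples. The groups did not overlap, with a log2 fold change of 0.75 ± 0.29 (SE; adjusted p by limma = 0.271). The midzone kinesins Kif20a and Kif23 stood at 0.37 to 0.88 FPKM in WT over both genes, and at 2.67, 0.67 and 1.25 FPKM and 2.15, 0.57 and 1.01 FPKM in mutant samples. In both, Fbn1C1041G/+ replicate 2 lay within the WT range. Kif11, the kinesin that separates the spindle poles, stood at 0.20, 0.57 and 0.28 FPKM in the WT and 1.10, 0.57 and 0.81 FPKM in mutant samples, so that 1 WT and 1 mutant value were equal. Nusap1, a spindle microtubule protein, stood at 0.48, 0.45 and 0.34 FPKM in the WT and 1.87, 0.59 and 1.21 FPKM in mutant samples, without overlap. The centromere genes Cenpa, which encodes the centromeric histone H3 variant, and Cenpf had ratios of means of 1.80 and 2.27.

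The order of the 3 mutant samples was the same in every gene of the mitotic set. Fbn1C1041G/+ replicate 1 was above replicate 3 and replicate 3 above replicate 2 for 22 of the 22 genes, an order noticed after the values were seen, against 15.9% of all genes averaging 0.1 FPKM or more. It held for 6 of the 12 replication genes. Fbn1C1041G/+ replicate 1 lay above all WT libraries for 22 of 22 mitotic genes and 12 of 12 replication genes, against 25.6% of all genes. For Fbn1C1041G/+ replicate 3 these counts were 21 of 22 and 7 of 12, against 23.5%, and for Fbn1C1041G/+ replicate 2 they were 10 of 22 and 3 of 12, against 27.2%. The genes of one library share its cells and its preparation, so these counts describe libraries and are not separate observations.

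The MCM genes, which encode the 6 subunits of the replicative helicase, were found at unequal levels although the subunits act in a single ring. In WT the mean was lowest for Mcm5, 1.83 ± 0.164 FPKM (SD, n = 3), and highest for Mcm6, 15.8 ± 1.63 FPKM (SD, n = 3), with Mcm2, Mcm3, Mcm4 and Mcm7 at 2.66, 3.60, 4.93 and 9.08 FPKM. Mcm6 (NCBI gene 17219) stood at 17.61, 15.29 and 14.46 FPKM in the WT and 20.22, 17.65 and 18.76 FPKM in mutant samples. The groups did not overlap, but by a narrow margin, and the log2 fold change was 0.25 ± 0.14 (SE; adjusted p by limma = 0.514). Mcm5 (NCBI gene 17218) stood at 1.97, 1.87 and 1.65 FPKM in the WT and 3.80, 2.07 and 2.23 FPKM in mutant samples, also without overlap (log2 fold change 0.36 ± 0.20, SE; adjusted p by limma = 0.532). Mcm2, Mcm3, Mcm4 and Mcm7 overlapped between the groups, with ratios of means of 1.14, 1.32, 1.03 and 1.13. For Mcm4 the 95% interval of the log2 fold change ran from -0.31 to 0.39.

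The loaders of the helicase were among the lowest of the replication genes. Cdt1, which brings MCM to origins and is destroyed in S phase, stood at 1.48, 1.09 and 0.53 FPKM in the WT and 3.37, 1.03 and 1.72 FPKM in mutant samples, with overlap (log2 fold change 0.54 ± 0.32, SE; adjusted p by limma = 0.553). Cdc6, the other loader, stood at 0.38, 0.24 and 0.18 FPKM in the WT and 0.39, 0.30 and 0.39 FPKM in mutant samples, and the values of the groups intermingled.

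**Figure D4:**
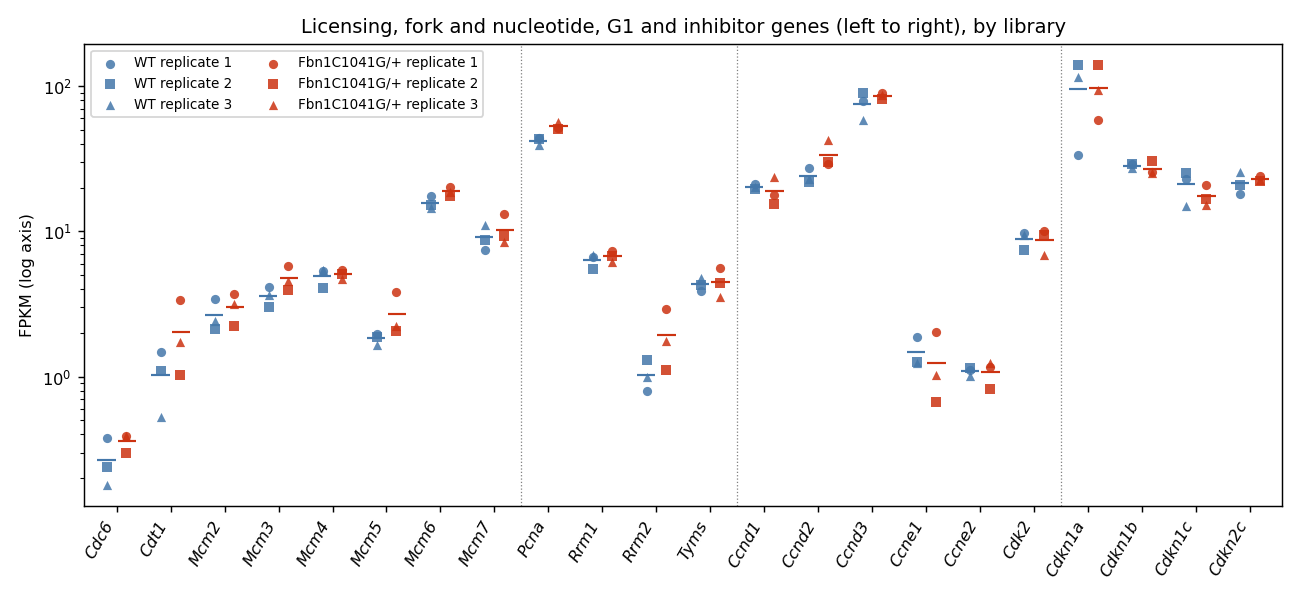
FPKM of the licensing and helicase, fork and nucleotide, G1 and inhibitor genes in each library on a log axis; blue symbols are WT, red symbols Fbn1C1041G/+, shapes mark the replicate number and short lines the group means. Pcna and Ccnd2 lie without overlap between the groups, and Cdkn1a spreads from 33.3 to 139.8 FPKM over the 6 libraries.

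At the fork, Pcna (NCBI gene 18538), the sliding clamp of DNA polymerases, was the most abundant replication gene. It stood at 43.6, 43.5 and 39.0 FPKM in the WT and 51.3, 51.0 and 56.5 FPKM in mutant samples, and unlike the mitotic genes it was of like height in all 3 mutant samples. This was a log2 fold change of 0.33 ± 0.13 (SE; adjusted p by limma = 0.284). Rrm2, the S phase subunit of ribonucleotide reductase, stood at 0.79, 1.30 and 0.99 FPKM in the WT and 2.92, 1.11 and 1.76 FPKM in mutant samples, in the library order of the mitotic genes. Rrm1, the large subunit of the same enzyme, was at 5.52 to 6.86 FPKM in the WT and 6.15 to 7.30 FPKM in mutant samples, for a fold change on the log2 scale of 0.07 and a 95% interval from -0.26 to 0.41. Tyms, thymidylate synthase, had a log2 fold change of 0.04 and an interval from -0.37 to 0.45. The subunits of the reductase thus had ratios of means of 1.06 for Rrm1 and 1.88 for Rrm2, and the difference between these ratios was not tested.

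The G1 genes showed no common direction. The D cyclins, which couple growth signals to Cdk4 and Cdk6, were abundant, with Ccnd3 first, at 58.2 to 89.8 FPKM over the 6 libraries. Ccnd2 (NCBI gene 12444) stood at 27.5, 22.0 and 22.9 FPKM in the WT and 29.1, 30.1 and 42.3 FPKM in mutant samples, without overlap and highest in Fbn1C1041G/+ replicate 3 (log2 fold change 0.46 ± 0.19, SE; adjusted p by limma = 0.299). Ccnd1 stood at 21.2, 19.6 and 20.2 FPKM in the WT and 17.7, 15.5 and 23.8 FPKM in mutant samples, on both sides of WT. The share of Ccnd2 in the summed D cyclin level was 21.6%, 16.7% and 22.6% in WT and 21.3%, 23.7% and 27.7% in mutant samples, which overlap. The E cyclins, which act with Cdk2 at the start of S phase, were low, with means of 1.47 and 1.25 FPKM for Ccne1 and 1.09 and 1.08 FPKM for Ccne2 in WT and mutant samples. Cdk2 had a log2 fold change of -0.02 with a 95% interval from -0.45 to 0.41.

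The inhibitors of cyclin-dependent kinases were expressed at levels well above those of the mitotic genes. Cdkn1a (NCBI gene 12575), p21, a target of p53, stood at 33.3, 138.9 and 115.5 FPKM in the WT and 58.8, 139.8 and 94.6 FPKM in mutant samples. It differed more within each group than between the group means of 95.9 and 97.7 FPKM, and the 95% interval of its log2 fold change ran from -1.14 to 1.49. Of Trp53 and its targets other than Cdkn1a, 15 genes in all, 14 were tested and 0 were called (limma; 0 higher and 1 lower at an unadjusted p under 0.05). Trp53 itself and Mdm2, which encodes the ligase that degrades p53, stood at 29.8 to 41.0 and 16.0 to 19.2 FPKM over the 6 libraries. Cdkn1b, p27, stood at 27.1 to 29.1 FPKM in the WT and 25.2 to 30.3 FPKM in mutant samples. Cdkn1c, p57, the product of an imprinted gene, stood at 23.0, 25.3 and 14.8 FPKM in the WT and 20.9, 16.7 and 15.2 FPKM in mutant samples, and Cdkn2c, p18, an inhibitor of Cdk4 and Cdk6, at 18.0 to 25.8 and 22.2 to 24.1 FPKM. For all 4 the groups overlapped.

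Short promoter motifs, which the choice of members did not use, were counted in each role class. RefSeq windows of the GRCm38.p6 assembly, from 250 bases before to 50 after a start, were found for 35 of the 44 genes, with 40 windows in all. Prc1, Mcm7, Ccnd3, Cdkn1a and Cdkn2c each had 2 windows, and those of Prc1 overlap, so the counts are of windows and not of genes. The CHR, the cell cycle genes homology region that binds MuvB complexes, was searched as TTTGAA or TTCGAA on both strands, and 14 of the 16 windows of mitosis genes and 2 of the 8 of licensing and helicase genes held it, against 19.2% of all 32851 windows. The CCAAT box, the letters CCAAT on both strands, which binds NF-Y, was present in 14 of 16 mitosis windows, 6 of 8 licensing windows and 3 of 4 fork and nucleotide windows, against 37.4% of all windows. Both motifs together were present in 14 of 16 mitosis windows and 2 of 8 licensing windows, against 7.52% of all windows. An E2F motif, searched as TTCCCGC or TTGGCGC on both strands, was present in 7 of the 8 windows of licensing and helicase genes, 1 of the 4 of fork and nucleotide genes (that of Rrm1) and 1 of the 16 of mitosis genes, against 6.81% of all windows. The letters of the second form can overlap those of a CCAAT box on the other strand. Of the 3 windows of S to M genes 2 held a CHR, 3 a CCAAT box and 2 an E2F motif, those of Cdk1 and Ccnb1. In the mitotic set the windows of Nusap1, Birc5 and Ccnb1 held no CHR. Of the 4 windows of G1 genes 0 held a CHR and 1 held an E2F motif. Of the 5 windows of inhibitor genes 0 held a CHR and 1 held an E2F motif. A match is a description of letters and not a bound site.

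Stretches of these windows, from 180 bases before to 20 after the start, 5′ to 3′ on the strand of the gene, show the letters for 4 genes of the mitotic set and 3 replication genes, with every CHR, CCAAT and E2F match in capitals.
Ccnb2, chr9:70421535-70421734, minus strand: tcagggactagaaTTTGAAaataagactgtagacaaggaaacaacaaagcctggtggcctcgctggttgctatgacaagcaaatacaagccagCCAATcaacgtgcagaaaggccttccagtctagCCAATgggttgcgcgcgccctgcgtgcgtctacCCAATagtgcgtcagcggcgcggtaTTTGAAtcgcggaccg
Ube2c, chr2:164769749-164769948, plus strand: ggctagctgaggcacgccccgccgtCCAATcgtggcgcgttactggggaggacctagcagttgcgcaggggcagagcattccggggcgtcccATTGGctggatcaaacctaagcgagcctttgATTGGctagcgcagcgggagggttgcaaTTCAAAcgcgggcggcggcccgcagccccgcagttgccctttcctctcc
Cdc20, chr4:118437324-118437523, minus strand: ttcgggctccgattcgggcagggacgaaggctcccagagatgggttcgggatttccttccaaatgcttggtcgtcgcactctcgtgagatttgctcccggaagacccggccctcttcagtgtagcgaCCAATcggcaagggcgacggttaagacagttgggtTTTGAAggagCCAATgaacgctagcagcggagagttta
Top2a, chr11:99024170-99024369, minus strand: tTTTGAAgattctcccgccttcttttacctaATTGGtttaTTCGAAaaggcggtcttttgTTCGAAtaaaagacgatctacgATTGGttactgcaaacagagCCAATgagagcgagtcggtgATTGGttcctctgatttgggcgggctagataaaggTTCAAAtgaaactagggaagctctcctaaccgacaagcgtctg
Mcm5, chr8:75109329-75109528, plus strand: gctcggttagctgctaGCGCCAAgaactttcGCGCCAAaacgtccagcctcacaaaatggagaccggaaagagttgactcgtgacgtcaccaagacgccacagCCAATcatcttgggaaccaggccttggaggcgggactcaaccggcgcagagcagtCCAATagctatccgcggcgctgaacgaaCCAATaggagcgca
Mcm6, chr1:128359686-128359885, minus strand: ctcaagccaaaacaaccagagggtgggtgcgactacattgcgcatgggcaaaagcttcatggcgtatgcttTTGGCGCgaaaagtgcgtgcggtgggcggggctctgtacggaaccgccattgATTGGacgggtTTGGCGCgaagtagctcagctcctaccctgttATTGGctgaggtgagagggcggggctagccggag
Rrm1, chr7:102441515-102441714, plus strand: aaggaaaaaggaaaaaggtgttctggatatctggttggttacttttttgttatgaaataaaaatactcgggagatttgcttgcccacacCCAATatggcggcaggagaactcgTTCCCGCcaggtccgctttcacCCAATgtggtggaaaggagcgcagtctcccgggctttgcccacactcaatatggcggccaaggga
In the stretch of Ube2c the single CHR lies between 3 CCAAT boxes and the start, and in that of Cdc20 it lies between 2 CCAAT boxes. Ccnb2 has a CHR on either side of its 3 CCAAT boxes, one of them just after the start, and the stretch of Top2a holds 4 CHR and 4 CCAAT matches. The stretches of Mcm5, Mcm6 and Rrm1 hold E2F matches and CCAAT boxes but no CHR. E2F matches were not limited to genes without overlap between the groups: the windows of Mcm3 and Cdt1, whose groups overlapped, held 3 and 2, and that of Pcna, whose groups did not overlap, held 0.

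Other genes of the same processes were read from lists written for this purpose. Of 54 further mitosis genes 22 were tested, 1 was called higher, 0 lower and 21 not called (limma). Over all tested genes 0.744% were called higher and 4.85% lower. At an unadjusted p under 0.05 (limma) 4 of the 22 were higher and 1 lower. The called gene, Smc4, a condensin subunit that compacts chromosomes, stood at 5.80, 5.51 and 6.25 FPKM in the WT and 9.08, 8.68 and 9.84 FPKM in mutant samples. It rose by 0.57 ± 0.13 on the log2 scale (SE; adjusted p by limma = 0.0482) to a like height in all 3 mutant samples, and the call held in 7 of 20 alternatives (adjusted p 0.0122 to 0.201) and ended without any 1 of the 6 libraries. At the filter of 0.1 FPKM 48 of the 52 further mitosis genes had a positive log2 fold change, with a median of 0.26. How many of the 52 passed it only through their mutant values was not counted. With no filter, 37 of all 54 had the library order of the mitotic members. Over all genes at the filter of 0.1 FPKM 49.2% were positive and 15.9% had that order. The summed level of the 54 was 286.4, 285.5 and 249.3 FPKM in the WT and 299.1, 229.5 and 238.8 FPKM in mutant samples. It overlapped between the groups, and Fbn1C1041G/+ replicates 2 and 3 lay below all WT libraries, unlike the mitotic sum of the members. These further genes share the libraries of the members, so the counts are not separate observations. Of 49 further replication factors 42 were tested and 0 were called (1 higher and 0 lower at an unadjusted p under 0.05), with a median log2 fold change of 0.13. The first of that list, the origin recognition subunits Orc1 and Orc2, stood at 0.04 to 0.26 and 6.92 to 8.66 FPKM over the 6 libraries. Of 20 E2F, RB and MuvB regulators 16 were tested and 0 were called (0 at an unadjusted p under 0.05), with E2f1 at 3.02 to 3.12 FPKM in the WT and 4.23, 2.88 and 3.02 FPKM in mutant samples and E2f2 at 0.60 to 1.79 FPKM over all 6. Of 15 other kinases, inhibitors and regulators 14 were tested and 0 were called (0 higher and 2 lower at an unadjusted p under 0.05). The D cyclin partners Cdk4 and Cdk6 stood at 57.9 to 62.0 and 1.82 to 2.36 FPKM in WT, and at 74.0, 49.3 and 54.2 FPKM and 2.15, 3.18 and 3.63 FPKM in mutant samples.

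Macrophage and monocyte markers had the library order of the mitotic genes, and other leukocyte markers did not. The summed level of 10 macrophage and monocyte markers was 205.6, 248.2 and 297.1 FPKM in the WT and 840.2, 366.2 and 590.8 FPKM in Fbn1C1041G/+ replicates 1 to 3, the order of the mitotic sums. Of the 10 markers 4 were called higher and 0 lower (limma), where 0.744% of all tested genes were called higher and 4.85% lower. At an unadjusted p under 0.05 (limma) 7 were higher and 0 lower, where 4.86% of all tested genes were higher and 10.3% lower. Their median log2 fold change was 1.02, and none was at 0 in any library. The library order of the mitotic members was found in 8 of 10, against 15.9% of all genes averaging 0.1 FPKM or more. The first 2 genes of the list were not among the 4 called, with adjusted p by limma of 0.382 for Cd68 and 0.0559 for Adgre1, and Adgre1 did not have that order. Cd68 stood at 12.03 to 16.5 FPKM in the WT and 69.1, 14.7 and 25.2 FPKM in mutant samples, and Adgre1 at 3.64 to 5.19 FPKM and 10.4, 6.56 and 10.8 FPKM. The sum of 9 T and NK cell markers was 3.76 to 7.61 FPKM in the WT and 26.9, 10.7 and 50.4 FPKM in mutant samples, with 0 of 9 called and Cd3e and Cd3g at 0.21 to 1.33 FPKM in WT. At an unadjusted p under 0.05 (limma) 9 of 9 were higher, with a median log2 fold change of 1.25. The sum of 8 B and plasma cell markers was 11.2 to 26.5 FPKM in the WT and 63.1, 131.7 and 212.0 FPKM in mutant samples, with 1 of 8 called higher. Of these 8, 7 were higher at an unadjusted p under 0.05 (limma), with a median log2 fold change of 1.59. The T and B sums were both highest in Fbn1C1041G/+ replicate 3, where the mitotic genes were second. The sum of 8 neutrophil markers was 9.47 to 15.7 FPKM in the WT and 21.7, 160.0 and 17.4 FPKM in mutant samples, highest in Fbn1C1041G/+ replicate 2, where the mitotic genes were lowest, and S100a8, Mmp8 and Ly6g were at 0 in at least 1 library. The part of any of these cells in the levels of the mitotic genes was not tested.

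**Figure D5:**
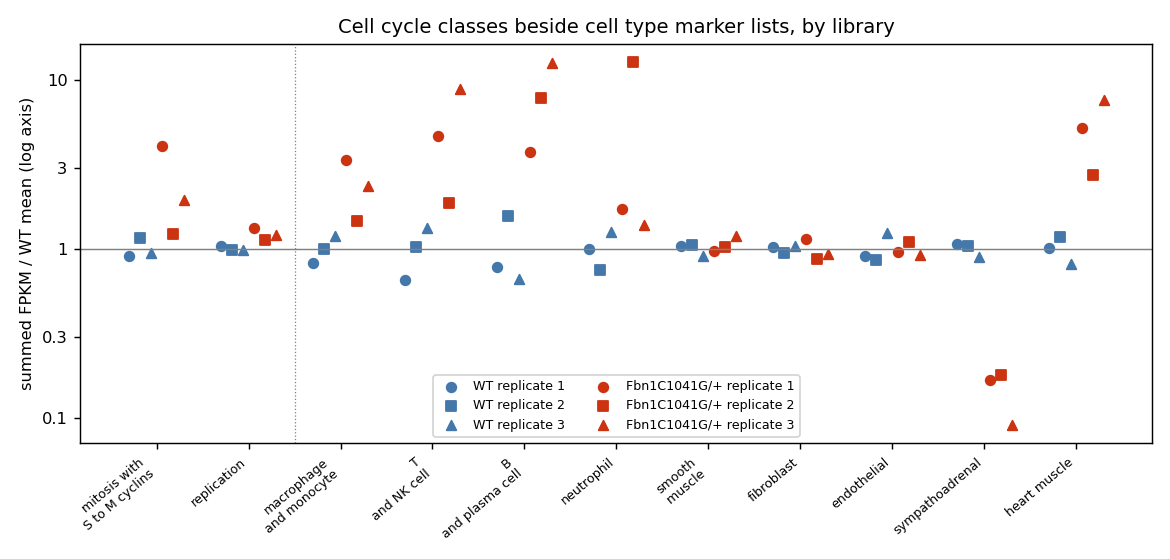
Summed FPKM of the mitotic set, the replication set and 9 marker lists in each library, divided by the mean of the 3 WT libraries, on a log axis; blue symbols are WT, red symbols Fbn1C1041G/+ and shapes mark the replicate number. The macrophage and monocyte sum has the mutant library order of the mitotic set, 840.2, 366.2 and 590.8 FPKM in replicates 1 to 3. The replication and fibroblast sums have that order too, and the T, B and neutrophil sums have other orders.

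Summed markers of smooth muscle, fibroblasts and endothelium overlapped between the groups. The sums of 8 smooth muscle markers were 9330 to 10888 FPKM in the WT and 10044, 10585 and 12248 FPKM in Fbn1C1041G/+ replicates 1 to 3, and 0 of 8 were called. Those of 8 fibroblast markers, Pdgfra and Dcn among them, were 2876 to 3161 FPKM in the WT and 3489, 2678 and 2846 FPKM in mutant samples, and those of 8 endothelial markers, Pecam1 and Cdh5 among them, were 359.1 to 519.5 and 402.4, 461.3 and 387.2 FPKM, with 0 of 8 called in each list. The fibroblast sum too had the mutant library order of the mitotic genes. Schwann cell and glial markers, S100b and Sox10 among the 8, summed to 232.6 to 335.1 FPKM in the WT and 147.9 to 221.6 FPKM in mutant samples, without overlap. Of these 8 markers 3 were called lower, and 7 of 8 sympathoadrenal markers were called lower. Heart muscle markers had 5 of 8 called higher. Over all tested genes 0.744% were called higher and 4.85% lower. Mesothelial markers, Msln and Upk3b among the 6, and adipocyte markers, Adipoq and Plin1 among the 6, had 0 called, with sums of 2.10 to 8.54 and 982.4 to 3441 FPKM in the WT and 8.56 to 25.8 and 1223 to 2189 FPKM in mutant samples. The mesothelial sums of the groups were apart by a narrow margin, and the adipocyte sums overlapped.

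Some members cannot be read without doubt. Per RefSeq, 12 of the 44, Ccna2, Cdc20, Nusap1, Prc1, Cdk2 and Mcm7 among them, overlap another gene in the genome, and strand is not stated for the libraries, so reads of the overlapping parts cannot be assigned. Named pseudogenes exist for 6 members, Pcna, Tyms, Ccnd3, Ccnb1, Ccnb2 and Aurkb, and reads may be shared with these copies.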

How the data were processed

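Poly(A) RNA libraries of aortic tissue, 3 WT and 3 Fbn1C1041G/+, were read from 1 deposited table of FPKM values per gene, per the file headers, rounded by the authors to 2 decimals. The build mm9 is named in the submitters' processing notes; the aligner and the quantifier: not given in the sources used here. The columns were matched to samples by name, with 0 left unmapped. Of 21117 gene numbers 21059 had a symbol in a RefSeq table of GRCm38.p6, from which the promoter windows also come; no coordinates of mm9 are given.

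FPKM holds no counts, so no count model was fitted. Values were taken to log2(FPKM + 1) and compared with limma 3.58.1 in R 4.3.3 (lmFit, eBayes with trend, 2-sided, Benjamini-Hochberg over all 13438 genes averaging 1 FPKM or more, threshold 0.05), after a check on simulated data. Depth was estimated from the steps of low values in genes with 1 transcript, of which 79.0% to 82.5% lay within 0.2 of a whole fragment at the depth chosen as the best fit to them; the fragments behind a value are estimates from mean transcript length. Intervals are those of the fit at 95%. The alternatives were pseudocounts of 0.1 and 0.01, no filter and filters at 0.1 and 5 FPKM, quantile and median-ratio scaling, limma without trend, robust moderation, weights per sample, a replicate block, correction for GC content by loess (span 0.3), 2 pairs of these together (pseudocount 0.1 with the filter at 0.1 FPKM, and block with GC correction) and each library left out. The members and lists were chosen with earlier results of these data known. A marker list of a further cell type is not reported here. All members could be named; of each further gene list, the called genes or else the first 2 were named, and of each marker list the first 2, called or not. Figures were drawn with matplotlib 3.10.9.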

Additional observations from a re-analysis of the deposited data

How the results depend on the processing

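The count of members called was 0 in each direction under each of the 20 alternatives listed in the methods, with a lowest limma adjusted p of 0.0904 (without Fbn1C1041G/+ replicate 2), and 2 were called higher with the filter at 0.1 FPKM and without Fbn1C1041G/+ replicate 2, an alternative chosen after the data were seen. Over all genes, the 100 higher and 652 lower calls moved to 33 and 349 with a filter at 5 FPKM, where 14 members were tested, and to 285 and 1011 with sample weights. Leaving out single libraries gave 37 to 192 higher and 389 to 751 lower calls, with 37 to 47 higher without WT replicate 1 or 2 or Fbn1C1041G/+ replicate 1 or 3, 192 without Fbn1C1041G/+ replicate 2, and 389, 413 and 397 lower without WT replicate 1, WT replicate 2 and Fbn1C1041G/+ replicate 3. With the replicate block there were 112 and 586, and no member was called; the same-numbered libraries had correlations of deviations of 0.26, -0.02 and 0.10, so the numbers were not taken to pair them. Over median-ratio scaling and single libraries left out, the ratio of summed FPKM ran from 1.59 to 2.997 for the mitotic set and from 1.17 to 1.26 for the replication set. Small log2 fold changes turned sign. With median-ratio scaling they were 0.0102 for Ccne2, 0.0158 for Cdk2 and 0.0123 for Cdk4, with quantile normalization 0.0177 for Cdk2 and 0.0241 for Cdk4, and with GC correction, with or without the replicate block, 0.0211 for Ccne2, 0.0232 for Cdk2 and 0.0163 for Cdk4. With sample weights they were -0.0104 for Tyms and 0.105 for E2f2, and that of Orc1 was 0.0456 with the filter at 0.1 FPKM and without Fbn1C1041G/+ replicate 2. Over single libraries left out they ran from -0.280 to 0.0165 for Ccnd1, -0.412 to 0.0199 for Ccne1, -0.0732 to 0.0798 for Ccne2, -0.130 to 0.128 for Cdk2, -0.198 to 0.0903 for Cdk4, -0.457 to 0.557 for Cdkn1a, -0.0188 to 0.227 for Cdkn2c, -0.0386 to 0.177 for E2f1, -0.279 to 0.0915 for E2f2, -0.0672 to 0.10 for Mcm4, -0.0219 to 0.293 for Mcm7, -0.0113 to 0.127 for Rrm1 and -0.0982 to 0.166 for Tyms. The cause of these moves was not tested. Depth limits genes under about 1 FPKM, such as Bub1 with an estimated 1 to 7 fragments in WT libraries.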

Other observations

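Cdkn1c belongs to a network of imprinted genes that act on growth, and 8 others of that network were read beside it. Of 7 tested, 0 were called higher, 1 lower and 6 not called (limma), where 0.744% of all tested genes were called higher and 4.85% lower. Mest (NCBI gene 17294), a paternally expressed gene that encodes a hydrolase-like protein, stood at 13.4, 13.6 and 13.4 FPKM in the WT and 4.04, 3.90 and 3.55 FPKM in mutant samples. It fell by 1.58 ± 0.12 on the log2 scale (SE; adjusted p by limma = 0.00211), lower in 3 of 3 mutant samples, and the call held in 20 of 20 alternatives (adjusted p 0.000538 to 0.0152). The summed level of the 8 was 2428, 2355 and 1831 FPKM in the WT and 1554, 1350 and 1112 FPKM in mutant samples.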
